A study of Drosophila melanogaster with 2 samples.

Results

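Binding of Araucan was examined at 7 genes of planar polarity and Fat signalling, ft, ds, fj, Vang, pk, stan and dgo, taken by name from 13945 protein-coding genes of the assembled fly chromosome arms. Each locus ran from 5 kb before the gene to 5 kb past it, and a peak belonged to a locus when its summit, the position of the highest signal, lay inside it. The peak lists come from ChIP-seq of Drosophila melanogaster embryos of 0 to 24 h, taken whole, of a strain labelled ara-GFP that carried a transgene for an ara-eGFP fusion protein. An antibody against the fluorescent protein precipitated the chromatin, in 2 biological replicates of the same genotype and age. The labels hold 1 group and no untreated or untagged samples, and control libraries were not used here, so every comparison below is between genes, peaks or replicates. Whole embryos mix all cell types, so binding in few cells and weak binding in many cannot be told apart. Read counts are not in the peak lists, and the depth is therefore unknown.

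Planar polarity is the alignment of cells within the plane of an epithelium, seen in the orientation of wing hairs, bristles and ommatidia. One system consists of the large cadherins Fat (ft) and Dachsous (ds), which bind each other across cell borders, and of Four-jointed (fj), a Golgi kinase that phosphorylates their cadherin domains. Fat also restrains tissue growth through the Hippo pathway. The other, core system places Frizzled and Dishevelled on one side of a cell and the transmembrane protein Van Gogh (Vang) with the cytoplasmic protein Prickle (pk) on the opposite side. Starry night (stan, also named Flamingo), an atypical cadherin, joins both sides, and Diego (dgo) is a cytoplasmic ankyrin-repeat partner of Frizzled and Dishevelled. Araucan is a homeodomain factor of the Iroquois complex, whose genes specify the dorsal side of the eye disc.

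In the series-wide list the highest Araucan peaks of the set lay upstream of ds (295.4) and ft (158.5), the genes of the cadherin pair. The dgo peak (152.8) lay close below that of ft. It was the higher of them in replicate 1 (69.7 against 48.4) and the lower in replicate 2 (94.9 against 108.8). The sequences of the ds and upstream ft peaks are shown here, together with a part of the peak at the ft start site. Each is given 5′ to 3′ on the coding strand of the gene, which is the minus strand in both cases, from the RefSeq release 6 genome, the same assembly as dm6. The ds window reaches 100 bp to each side of the summit (chr2L:715442-715642). The upstream ft window reaches 100 bp to each side of its summit (chr2L:4223024-4223224). The third run is the 99 bp just before the ft start site (chr2L:4221797-4221895), which is the untranscribed part of a further peak that straddles the start. It holds neither the summit of that peak nor the 50 bp to each side of it, which the later counts used. No annotated exon overlaps any of the 3 runs. Capitals mark matches to any of 7 motifs searched on both strands, which are listed with the motif counts further on.
ds upstream peak: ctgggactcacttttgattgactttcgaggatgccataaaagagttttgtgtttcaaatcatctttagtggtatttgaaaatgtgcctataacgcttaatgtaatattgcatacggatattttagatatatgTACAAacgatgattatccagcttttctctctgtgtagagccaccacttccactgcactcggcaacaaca
ft upstream peak: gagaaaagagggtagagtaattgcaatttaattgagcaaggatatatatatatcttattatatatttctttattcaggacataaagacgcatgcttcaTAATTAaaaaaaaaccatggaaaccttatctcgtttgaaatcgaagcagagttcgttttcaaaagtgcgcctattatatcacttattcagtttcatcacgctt
ft start-site peak: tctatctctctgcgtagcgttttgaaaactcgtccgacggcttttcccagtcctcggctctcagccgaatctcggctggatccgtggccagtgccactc

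Of the 7 loci, 5 held a summit of the conservative list, those of ft, ds, Vang, pk and dgo, and those of fj and stan held none. Together they held 6 summits. Over all protein-coding genes 43.7% of loci held a summit, so 5 of 7 is a count above the background but one that rests on few genes. Long loci held summits more often. The loci of ft (33.4 kb), ds (85.0 kb), pk (82.7 kb) and stan (57.8 kb) fell in the longest of 10 equal groups of genes by locus length, in which 64.4% of loci held a summit, and 3 of these 4 members did. The loci of fj (13.6 kb), Vang (13.6 kb) and dgo (13.8 kb) fell in the group that began at 12.8 kb, in which 46.3% did, and 2 of these 3 members did. Both counts stand close to what genes of like length showed.

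**Figure D1:**
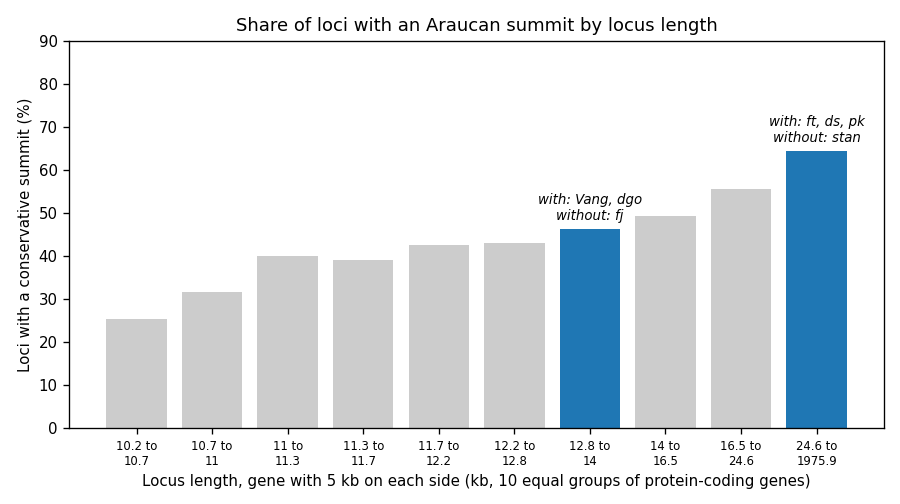
Percentage of protein-coding gene loci with at least 1 conservative Araucan summit (vertical axis), in 10 equal groups of genes by locus length in kb (horizontal axis). The blue bars are the groups that hold the 7 genes, at 46.3% and 64.4%, with the members that had a summit and those that had none written above each.

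A summit near a gene is not always a summit at that gene, and the set divided on this point. A member was the gene with the nearest start site for 4 of the 6 summits, which belonged to ft, ds and pk, so 3 of 7 members had such a summit against 18.5% of all protein-coding genes. The summits in the Vang and dgo loci lay at the promoters of neighbours. Only ft had a summit within 500 bp of an own start site, which 15.1% of all genes had. Only ft and pk had one inside the gene body, against 12.2% of all genes. The genes ft, ds and pk are all in the group of longest loci, and these shares were not taken among genes of like length. The counts are of 1 to 3 genes and no test was made of them.

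**Figure D2:**
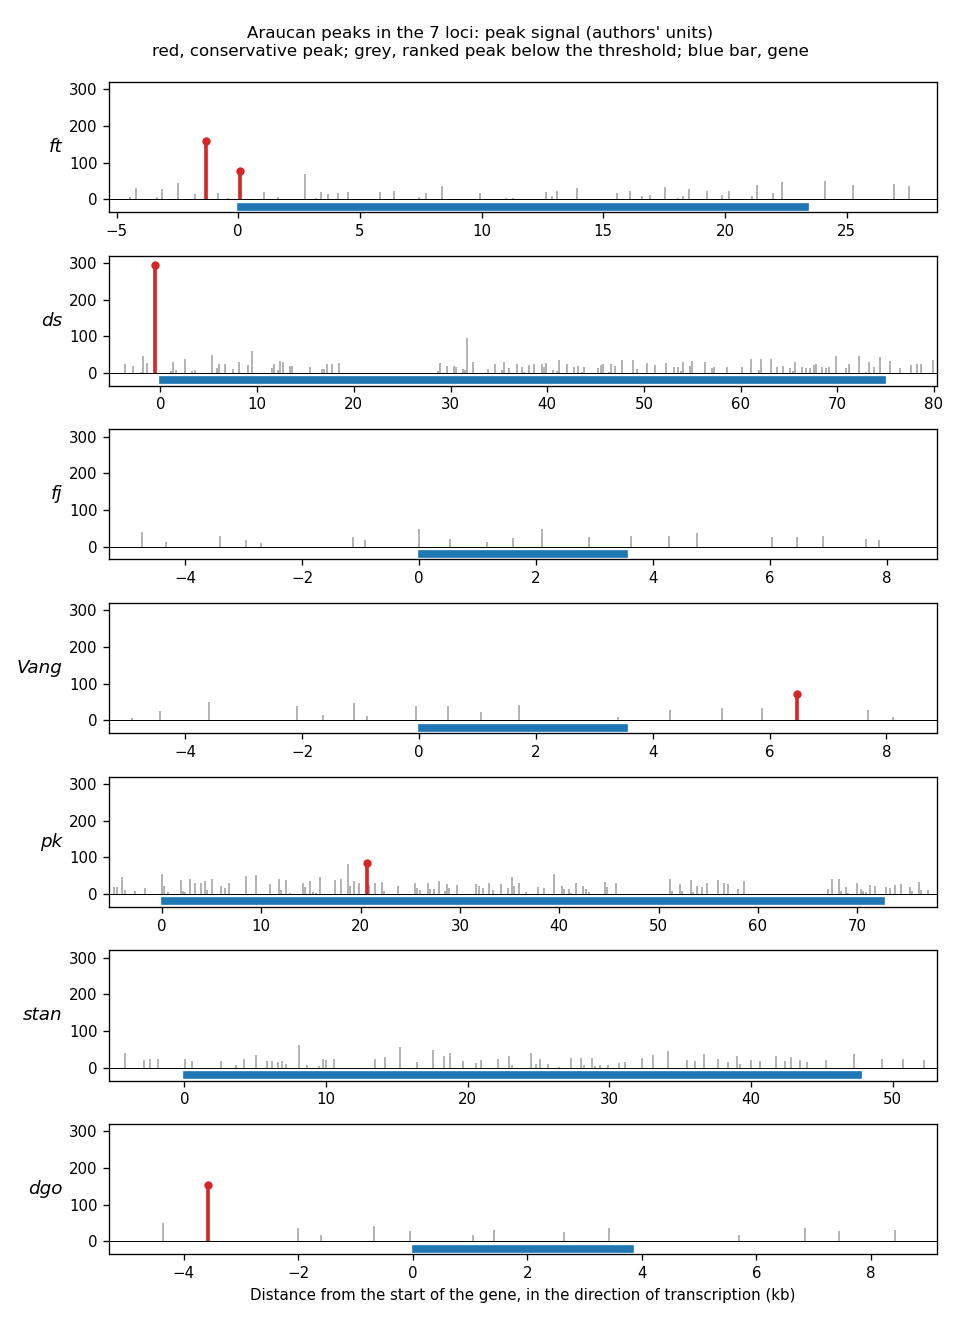
Peak signal in the authors' units (vertical axis) against the distance in kb from the start of each gene in the direction of its transcription (horizontal axis), with 1 panel per gene. Red marks the 6 conservative peaks, grey the 400 ranked peaks below the threshold, and blue the gene: the peak upstream of ds (295.4) is the highest, and the fj and stan panels hold grey lines alone.

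The ds peak was the highest of the set in each replicate. The gene ds (FBgn0284247, 2L 640013 to 714983, minus strand) had its peak at 715380 to 715703, in intergenic sequence, with the summit 559 bp upstream of its single annotated start site. No other protein-coding locus held this summit. The signal, a value per peak given by the authors, was 295.4, higher than 91.8% of the conservative list and than the highest peak of 84.1% of the protein-coding loci that held one. It was 108.6 in replicate 1 and 175.8 in replicate 2, and these values rank above 90.1% and 91.5% of the conservative peaks in the respective replicate. Both replicates therefore put the ds peak in the highest 10% of the list. Its −log10 global irreproducible discovery rate (IDR, the expected share of peaks whose rank does not repeat between replicates) was 4.67, against a median of 2.89 for conservative peaks and a threshold of 2.

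At ft the gene start was flanked by a pair of peaks that the replicates treated differently. The gene ft (FBgn0001075, 2L 4198404 to 4221796, minus strand) had its higher peak at 4222962 to 4223285, in intergenic sequence 1328 bp upstream of the start site. The signal of this peak was 158.5 in the series-wide list, 48.4 in replicate 1 and 108.8 in replicate 2. The replicate 2 value was 2.25 times that of replicate 1, above the upper quartile of this ratio over conservative peaks (1.62). The second ft peak, at 4221572 to 4221895, had its summit 62 bp past the start site, in the promoter class. Its signal was 75.6, with 34.6 in replicate 1 and 38.1 in replicate 2, a ratio of 1.10. The 2 summits were 1390 bp apart and differed in base composition, with 28.7% G and C in the 50 bp to each side of the upstream summit and 52.5% around the start-site summit, against a median of 34.7% over all conservative summits. The ft locus also overlaps those of CG3702 and RpL40, and ft had the nearest start site for both peaks.

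The fj locus held no conservative summit, and its ranked peaks below the threshold differed in how far the replicates matched. The gene fj (FBgn0000658, 2R 18232761 to 18236311, plus strand) had a ranked peak 3 bp upstream of its start site with a signal of 47.7, at 26.8 in replicate 1 and 22.8 in replicate 2. Its −log10 IDR was 1.48, under the threshold of 2. A further peak 2098 bp into the gene, in a coding exon, had a signal of 47.3 with 21.6 in replicate 1 and 27.5 in replicate 2. These were the highest of the 21 ranked peaks of the locus. Between them lay weaker peaks that were higher in replicate 2, such as one 524 bp past the start site with 4.4 in replicate 1 and 25.0 in replicate 2. Conservative summits stood just outside the locus. The nearest was 5837 bp past the gene end (119.8, with 36.6 in replicate 1 and 86.1 in replicate 2), and a further summit 6037 bp past it (4.9) carried the same replicate values. Another lay 7750 bp upstream of the gene (140.0, with 67.6 and 77.5), and one 9992 bp past its end (139.4, with 58.5 and 75.0). The nearest start site to each of these was that of a long noncoding RNA gene.

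Among the 4 core genes of the set, the peak in the dgo locus was the highest, at 152.8, and it lay at another gene. The gene dgo (FBgn0086898, 2R 10816037 to 10819884, minus strand) had this summit 3573 bp upstream of its start site and 52 bp past the start site of CG12325. The signal was 69.7 in replicate 1 and 94.9 in replicate 2, with replicate summits 2 bp apart and a −log10 IDR of 3.72. The locus is crowded, and the same summit fell in 7 protein-coding loci, among them that of the proteasome subunit gene Prosbeta5. At the dgo start site itself the highest ranked peak had a signal of 28.8, lower than the median of 35.0 over the protein-coding genes with such a peak.

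The Vang locus had the weakest conservative peak of the set in the series-wide list and in replicate 1, though not in replicate 2. The gene Vang (FBgn0015838, 2R 9103238 to 9106796, plus strand) had it 2910 bp past the gene end, with the summit 12 bp from the start site of Pgm2a, a phosphoglucomutase family gene. Its signal of 70.9 was higher than 24.0% of the list, and it was 28.8 in replicate 1 and 41.3 in replicate 2. The replicate 1 value was higher than 7.7% of the conservative peaks in that replicate. The −log10 IDR of 2.23 was the nearest to the threshold among the 6 peaks. At the Vang start site the highest ranked peak, 44 bp upstream, had a signal of 39.1, with 23.3 in replicate 1 and 13.4 in replicate 2.

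The pk peak was intronic and lay upstream of an internal start site. The gene pk (FBgn0003090, 2R 7150703 to 7223378, plus strand) has 3 annotated start sites, and the summit was 818 bp upstream of the middle one and 20652 bp from the start of the gene. Its signal was 84.6, at 35.3 in replicate 1 and 46.0 in replicate 2, and the replicate summits were 1 bp apart. Its −log10 IDR was 2.64. The highest ranked peaks within 500 bp of the start sites, from the first to the third, had signals of 55.5, 30.0 and 6.6, none of them past the threshold. A second intronic pk peak, 2699 bp upstream of the middle start site, differed between the replicates, with 23.1 in replicate 1 and 67.5 in replicate 2, and did not enter the conservative list (−log10 IDR 1.62).

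At stan, as at fj, no replicate's own thresholded list and no series-wide thresholded list held a summit. The stan locus is in the group of longest genes, in which 64.4% of loci held a conservative summit. The gene stan (FBgn0024836, 2R 10673345 to 10721138, plus strand) had its best ranked peak 8116 bp past the first start site, in an intron, with a signal of 62.6, 27.2 in replicate 1 and 30.3 in replicate 2. This peak came close to the threshold, with a −log10 IDR of 1.91. Peaks at the first and second start sites had signals of 23.6 and 25.8, and replicate values of 8.4 and 27.7 at the first and 20.4 and 2.1 at the second. The nearest conservative summit was 17.2 kb from the gene.

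Across the set the replicates kept ds first and disagreed on the order further down. In the series-wide list the order was ds (295.4), ft upstream (158.5), dgo (152.8), pk (84.6), ft at the start (75.6) and Vang (70.9). In replicate 1 dgo (69.7) stood above the upstream ft peak (48.4), and in replicate 2 it stood below (94.9 against 108.8), so these neighbours were not ordered beyond the spread of the replicates. The same held for Vang and the ft start-site peak, at 28.8 and 34.6 in replicate 1 and 41.3 and 38.1 in replicate 2. Replicate 2 gave the higher value at all 6 peaks, with ratios from 1.10 to 2.25. It also did so at 77.7% of all conservative peaks, with a median ratio of 1.31, so the direction is that of the whole list.

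**Figure D3:**
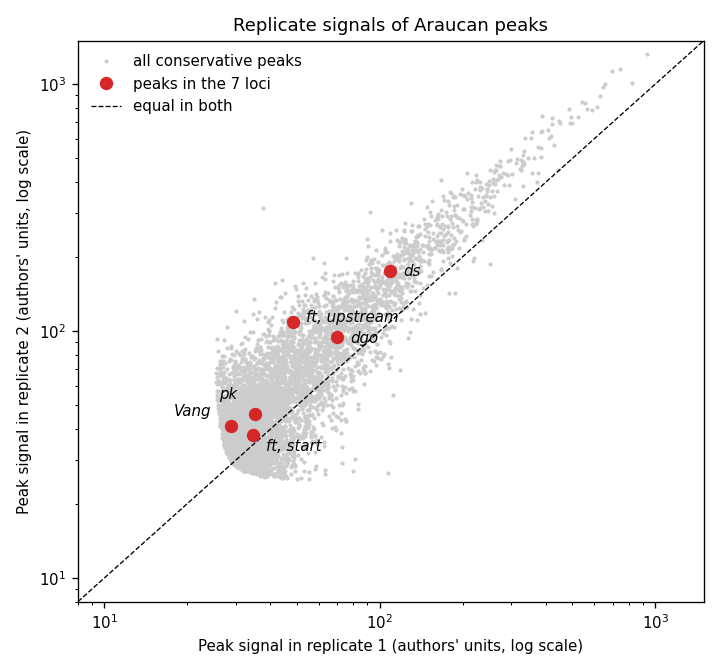
Peak signal in replicate 1 (horizontal axis) against replicate 2 (vertical axis), both in the authors' units on log scales, for all 4706 conservative peaks (grey) and the 6 peaks in the loci (red). All red points lie above the dashed line of equal signal, with ds at 108.6 and 175.8 and the other points near or inside the dense lower part.

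The replicates' own thresholded lists held different numbers of the genes. Replicate 1's list had a summit in the loci of ft, ds and dgo, 3 of 7 against 28.6% of all protein-coding loci. Replicate 2's list had one in those of ft, ds, Vang, pk and dgo, 5 of 7 against 40.4%. The pk locus counted there through peaks other than its conservative one. Neither share was matched for locus length. Of the 6 conservative peaks, the upstream ft, ds and dgo peaks overlapped a peak of both lists, the Vang peak overlapped replicate 2's list alone, and the pk peak and the ft start-site peak overlapped neither. Over all conservative peaks 44.9% overlapped both lists, 26.3% replicate 2's alone and 24.8% neither.

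The other thresholded list of the series again had summits in 5 of 7 loci, against 47.6% of all, and added intronic peaks. These were at ds, with summits 9516 and 31752 bp past the start site (58.6 and 95.1), and at pk, where the peak 2699 bp upstream of the middle start site entered the list (81.7). The ds peak at 31752 bp had a signal of 22.6 in replicate 1 and 73.0 in replicate 2 in the ranked list that compares the replicates. The ds peak at 9516 bp had 7.6 in replicate 1 and 39.4 in replicate 2, with a −log10 IDR of 0.21. All 3 added peaks were higher in replicate 2.

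The density of ranked peaks, most of them below the threshold, lay on both sides of the genome-wide median in the 7 loci. The full ranked list covers 33.4% of the assembled arms, and the loci held 406 of its peaks, at 1.01 per kb (dgo) to 1.55 per kb (fj) against a median of 1.32 over all protein-coding loci. The order of the genes at their own start sites differed from that of their highest peaks. The highest ranked signal within 500 bp of a start site was 75.6 at ft, 55.5 at pk, 47.7 at fj, 39.1 at Vang, 28.8 at dgo and 25.8 at stan. Ranked peaks at ft were higher than those at the start sites of 84.8% of the protein-coding genes that had one, those at fj than 70.0%, and those at stan than 29.1%. No ranked summit lay within 500 bp of the ds start site.

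Of the 6 summits 3 fell in the promoter class, within 500 bp of any annotated start site, 2 in intergenic sequence and 1 in an intron, and none in a coding exon. Over all 4706 conservative summits 39.9% were in promoters, 16.9% were intergenic and 37.7% intronic. Of the promoter summits, only that of ft was at a gene of the set.

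The known Iroquois palindrome ACANNTGT was in none of the 6 windows that reached 50 bp to each side of the summits, and in 4.80% of all conservative windows. In windows that reached 100 bp to each side 1 match appeared, at the dgo peak. The pentamer TAACA was in 1 window, at dgo (24.5% of all windows), and its rearranged control TACAA in 1, at ds (27.6%). The homeodomain core TAATTA was in 1, at the upstream ft summit (8.73%). The control palindrome ACTNNAGT (2.61% of all windows), the DREF site TATCGATA (0.93%) and the Zelda core CAGGTA (2.17%) were in none. None of the 7 motifs was in the windows of the ft start-site, Vang and pk peaks, and 46.5% of all windows held none. Both strands were searched, and TAACA and TACAA both contain ACA and can overlap a match to the palindrome. With 6 windows, these counts describe the letters present and say nothing of which protein bound.

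Most of the other genes of planar polarity and of the Fat and Hippo pathways also held a summit in the locus. Of 27 such genes, 19 did (70.4%, against 43.7% of protein-coding genes), and their highest peaks had a median signal of 146.0 against 126.0 over all loci with a summit. These medians were not matched for the number of summits. The 19 loci held 49 summits in total, a sum that does not compare directly with the median of 1 per protein-coding locus with a summit. In the group of longest genes the mean was 1.83 summits per locus, with loci that held none included. Many of the 27 genes are long. Of the 10 in the group of longest genes 8 held a summit, against 64.4% of all genes there, and of the 5 in the length group of fj, Vang and dgo 2 did, against 46.3%. In the other length groups 2 of 4 (group share 42.4%), 2 of 2 (43.0%), 2 of 3 (49.2%) and 3 of 3 (55.6%) did, from shorter to longer loci. A pathway gene had the nearest start site of a summit in 10 of 27 cases, against 18.5% of all genes, a share not taken by locus length. No test was made of the list.

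Both core partners held summits. By list, the counts here and below compare with 43.7% of all protein-coding loci and 64.4% of those in the longest group. They were not matched for locus length. The receptor gene fz had 6 summits, the highest at 614.9 in an intron (216.2 in replicate 1, 401.6 in replicate 2). This signal was above every peak of the 7 loci. The nearest start site was that of a long noncoding RNA gene, and the summit lay 29733 bp past an own start site of fz. The peak in the locus of dsh, which encodes Dishevelled, reached 301.3 (131.3 and 168.7) and lay nearer the start of CG1737. Among effectors of the core system 4 of 6 loci held a summit, and the highest peak of each of these 4 was nearest the start site of another gene. Among Fat pathway transducers 4 of 6 held a summit. The palmitoyltransferase gene app reached 371.5 (142.7 and 223.0) with the summit 162 bp upstream of an own start site, and the casein kinase gene dco reached 229.5 (79.6 and 153.4), nearest Sox100B.

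In the Hippo kinase cassette and its output, 4 of 6 loci held a summit, all under the signal of the upstream ft peak. Of 6 upstream regulators 5 held one. The FERM-domain gene ex, a Hippo target and regulator, had 5 summits and a highest intronic signal of 291.1 (123.8 and 169.8). That summit lay 10899 bp past an own start site of ex and was nearest the start of a long noncoding RNA gene. The apical polarity gene crb also had 5 summits, the highest at 219.9 (83.7 and 137.9), 969 bp past an own start site. Mer, which encodes the fly Merlin, reached 159.0 (69.9 and 81.2), 92 bp past its start site. The Fat-like cadherin gene kug, which acts in planar polarity of the follicle epithelium, held no conservative summit. Replicate 2's own thresholded list had 1 summit in the kug locus, and that of replicate 1 had none.

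**Figure D4:**
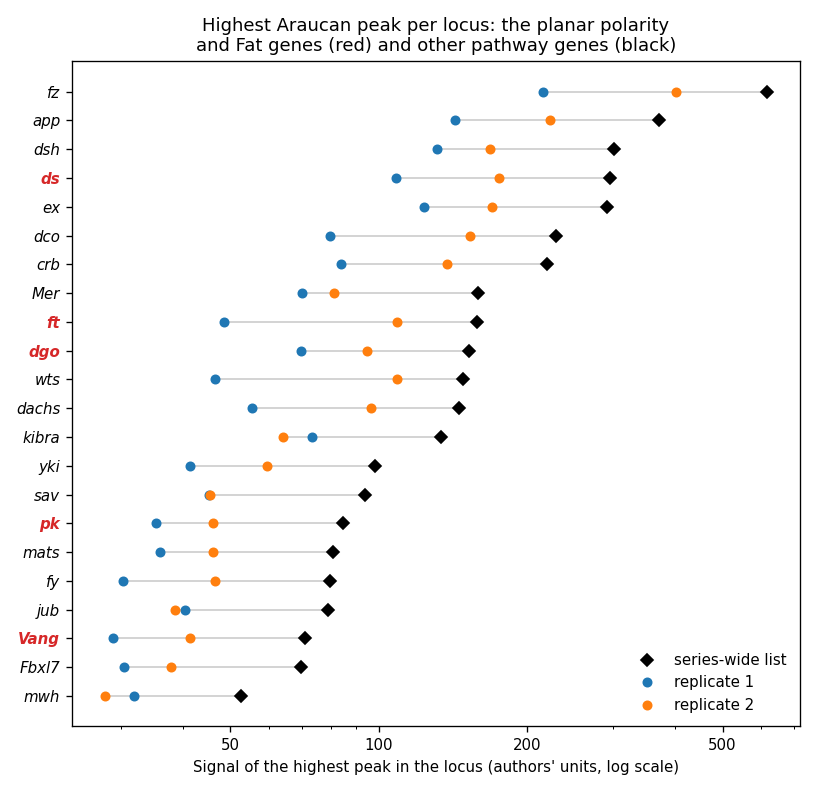
Signal of the highest conservative peak per locus in the authors' units on a log scale (horizontal axis), for the 5 genes of the set with a peak (red names) and for other pathway genes with a peak (black names, 2 of them not plotted). Diamonds are the series-wide list and circles the replicates: ds (295.4) stands beside dsh and ex, ft and dgo lie in the middle, and pk and Vang near the lower end.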

How the data were processed

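The labels describe ChIP-seq of 2 biological replicates, with sonicated fragments of 200 to 800 bp, on dm6. For the aligner and caller, the sources used here give no name. The authors deposited peak lists with a signal per peak (normalization not given), a score up to 1000 and, in ranked lists, −log10 values taken here as the global IDR. Every peak of the conservative list had a score of 830 or more and a −log10 global IDR of at least 2. The main list was the conservative one, with 4716 peaks (4706 on the arms). Replicate values came from the series-wide ranked list of 150015 peaks. Its columns do not name the replicates. The first set of values was taken as replicate 1 and the second as replicate 2, because 4684 of the 4706 first values and 4693 of the second were identical to a peak in the ranked list of that replicate, as were all values at the 6 peaks. Annotation was Ensembl release 115 without transposable elements. All 7 symbols matched, and 1 pathway symbol was matched through an older name (dachs). Summits are 1-based. Python 3.11.15, numpy 2.4.6, pandas 2.3.3 and matplotlib 3.10.9 were used. Counting was tested on simulated data.

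The members, lists and motifs were chosen with earlier results of these data known, so no list was tested. Named were all members, the 8 pathway genes of highest signal except 1 whose result is not reported here, lists without a summit, and neighbours whose start site was nearest to a member peak. Names outside this rule were chosen after their values were seen. Alternatives were the other lists, flanks, nearest start sites, peak overlap, promoter distances and motif windows.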

Additional observations from a re-analysis of the deposited data

How the results depend on the processing

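The count of 5 genes with a summit was 5 in the other thresholded list (47.6% of all loci) and with any overlap of the peak. It was 6 with 10 kb flanks, and 3 for peaks above the median signal and with 2 kb flanks. With the nearest start site it was 3 (18.5% of all genes), and without flanks 2 (12.2%). For 2 kb and 10 kb flanks, peaks above the median signal and any overlap, the share over all genes was not taken. Counts of members or pathway genes at those settings therefore have no background beside them. Leaving out 1 replicate gave 3 to 5 genes, the lower count being that of replicate 1's list alone (without replicate 2). The 6 summits became 3 for peaks above the median signal, 2 without flanks and 12 with 10 kb flanks, and 3 to 10 when 1 replicate was left out (10 without replicate 1). The loss with shorter flanks follows from construction, since the upstream ft summit and the ds, Vang and dgo summits lie outside the genes. The cause of the other shifts was not tested. The stan locus held no summit under any of these settings, and fj held summits, 4 of them, with 10 kb flanks only. The count of 19 pathway genes ranged from 13 to 23 under other lists and flanks and was 10 with the nearest start site. Promoter summits were 5 of 6 within 1000 bp in place of 500 bp. The palindrome ACANNTGT was in 1 window with 100 bp to each side of the summit, against 0 with 50 bp. No paired analysis was possible because the labels give a single group. Read depth is unknown, so an absent peak is one not listed at this depth.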
